A study of Mus musculus with 11 samples.

Results

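Epiblast stem cells (EpiSCs) that carry the receptor transgene GY118F were set against control EpiSCs after both had received G-CSF for 3 hours. The comparison used the 2 arrays of stimulated GY118F EpiSCs and the 3 arrays of stimulated control EpiSCs, which are 5 of the 11 arrays of the series. Members were all probes whose gene lies on an autosome, 13239 of the 15718 probes, and 1 probe per gene left 8875 autosomal features of 11208 features in all. For each feature the difference is the mean of the stimulated GY118F arrays minus the mean of the stimulated control arrays, on the log2-like scale on which the values were deposited.

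The series was made to find genes that respond downstream of GY118F in mouse EpiSCs. Its groups were GY118F EpiSCs with G-CSF for 3 hours (n = 2), control EpiSCs with G-CSF for 3 hours (n = 3), GY118F EpiSCs without G-CSF (n = 3) and control EpiSCs without G-CSF (n = 3). All arrays came from 129xMF1 cells in N2B27 medium with Activin and Fgf, and the labels list no transgene for the control. Nothing in the labels says how many clones stand behind either line, what drives the transgene, or that replicates came from separate cultures. The p-values therefore cover the spread among these arrays alone, and that spread may be technical. Because both lines received the cytokine, the contrast asks how the line with the receptor and the control line differ under the same handling. The same contrast without G-CSF, which shares no array with it, is given beside it. The receptor and other differences between the lines, such as those of sex-linked transcripts and whole chromosomes given below, cannot be told apart in this contrast.

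GY118F joins the part of the G-CSF receptor that binds the ligand to the signalling part of gp130, the shared receptor chain of LIF and IL-6. With its Shp2-binding tyrosine replaced, such a receptor signals through JAK kinases to the transcription factor STAT3, which switches on its own feedback inhibitors, above all Socs3. In mouse embryonic stem cells STAT3 sustains self-renewal and the naive state, whereas EpiSCs, the counterpart of the later epiblast, are kept by Activin and Fgf.

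The stimulated lines differed in many autosomal genes. Of 8875 autosomal features, 1481 were called higher in stimulated GY118F EpiSCs (16.7%) and 1329 lower (15%), by limma with Benjamini-Hochberg adjusted p under 0.05. Both stimulated GY118F arrays lay above all 3 stimulated control arrays in 26.7% of the features and below them in 25.9%. A difference of at least 1.4-fold was found in 349 of the higher and 286 of the lower calls. The median difference over all autosomal features was -0.0018, with a 5th percentile of -0.39 and a 95th percentile of 0.43. Arrays of 1 stimulated group correlated at 0.995 to 0.998 across features and arrays of different stimulated groups at 0.977 to 0.982; features are not independent replicates. Deposited values ran from 7.11 to 15.22 with a median of 8.16, the table holds no detection calls, and the number of arrays limits the precision.

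Calls were unevenly spread over the chromosomes. On chromosome 11, 344 of 795 features were higher in stimulated GY118F EpiSCs (43.3%) and 9.06% were lower, with a median difference of 0.15. Chromosome 2 went the other way, with 238 of 734 features lower (32.4%), 6.95% higher and a median difference of -0.12. Over the other 17 autosomes 14.8% of features were higher and 13.9% lower, and their medians lay between -0.02 and 0.01. Both stimulated GY118F arrays showed the shifts. Without G-CSF the same chromosomes stood apart, with 48.6% of features higher on chromosome 11 and 33.1% lower on chromosome 2. Cut into 4 blocks of like size in gene order, chromosome 11 had median differences of 0.16, 0.01, 0.13 and 0.28, and the last block, which holds Socs3, had 65.7% of its features higher. The last of 4 such blocks of chromosome 4 had 34.2% of its features lower. The labels give no karyotype, and the part of these shifts in the other results was not tested; where it changes the number of calls, a list is therefore also counted without its members on chromosomes 2 and 11.

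**Figure D1:**
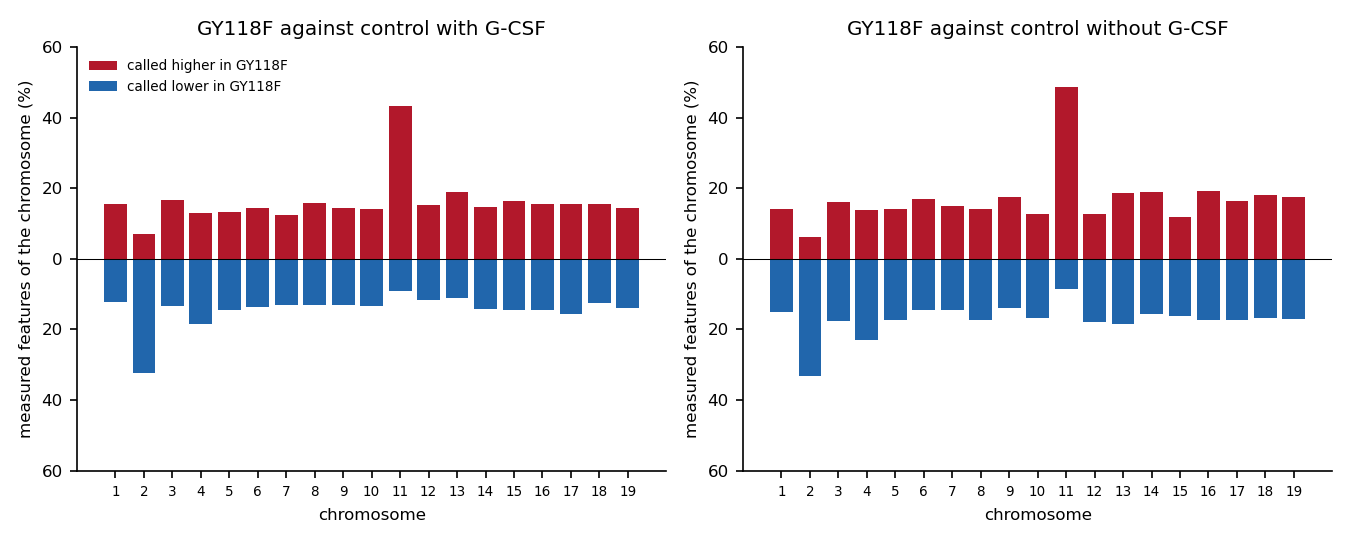
Percent of the measured features of each autosome called higher (bars upward) or lower (bars downward) in GY118F EpiSCs, with G-CSF on the left and without on the right (limma, adjusted p under 0.05). Chromosome 11 has 43.3% higher with G-CSF and 48.6% without, and chromosome 2 has 32.4% lower with G-CSF and 33.1% without.

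The lines also differed in transcripts of the sex chromosomes, which are not among the autosomal members. Xist, the RNA that coats the inactive X, averaged 7.20 in stimulated GY118F EpiSCs and 9.84 in stimulated control EpiSCs. The Y-linked Eif2s3y averaged 8.95 in stimulated GY118F EpiSCs and 7.18 in stimulated control EpiSCs. Both differences were present without G-CSF as well, at 7.17 and 9.53 for Xist and 8.88 and 7.20 for Eif2s3y in GY118F and control EpiSCs.

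Socs3, an inhibitor that gp130-type receptors induce against themselves, had the largest positive difference. It stood at 11.99 and 11.94 in the stimulated GY118F arrays, against 8.05, 8.01 and 8.11 in the stimulated control arrays. The groups did not overlap, and the difference was 3.91 ± 0.05 (SE), which is 15-fold (limma adjusted p = 3.90e-14). Without G-CSF Socs3 was already higher in GY118F EpiSCs, by 0.73, and the line difference with G-CSF exceeded that without by 3.18 ± 0.07 (SE, limma interaction adjusted p = 1.96e-11).

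Stat3 itself was at 9.73 and 10.08 in the stimulated GY118F arrays, against 7.80, 7.61 and 7.70 in the stimulated control arrays. Every stimulated GY118F value lay above every control value, with a difference of 2.20 ± 0.09 (SE, limma adjusted p = 1.96e-09), and its other probes gave 1.64 and 1.10. Without G-CSF the Stat3 difference was -0.01 and was not called, while these other probes were at -0.40 and -0.07. Klf5, a Krüppel-like factor of the naive pluripotency network, had 11.33 and 11.25 in stimulated GY118F EpiSCs, against 9.61, 9.62 and 9.72 in stimulated control EpiSCs. It was higher by 1.64 ± 0.08 (SE, limma adjusted p = 1.07e-08), while without G-CSF it had no call, at -0.04. Socs3 and Stat3 lie on chromosome 11, whose median difference was 0.15, and Klf5 on chromosome 14, whose median was -0.0075. Gadd45g, a growth arrest and DNA damage gene known as a cytokine target, was higher by 2.49 ± 0.06 (SE) with G-CSF and by 2.06 without.

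Among STAT3 feedback genes and early targets, 16 were measured and 11 were higher and 0 lower with G-CSF, where 16.7% of all autosomal features were higher, and their median difference was 0.58. Without G-CSF 2 were higher, 5 were lower and the median was -0.04, where the shares over all autosomal features were 17.7% and 17.5%. The 13 members that lie on neither chromosome 2 nor 11 had 9 higher and 0 lower. Beyond the genes named above, the AP-1 subunits Junb and Fos were higher by 1.38 and 0.95, and the feedback inhibitors Socs2 and Cish by 0.73 and 0.57. The adhesion receptor Icam1 was higher by 0.58, the NF-κB cofactor Bcl3 by 0.45 and the early response gene Ier3 by 0.28. The members without a call were Pim3 at 0.29, Tfcp2l1 at 0.13, Myc at 0.03, Cebpb at 0.02 and Cebpd at -0.02. Since the list was chosen with results of these arrays known, its count is a description.

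STAT dimers bind a palindrome of the form TTCNNNGAA, which reads the same on both strands, and the promoters of the STAT3 and immediate early list members called higher were searched for it. RefSeq promoters (GRCm38.p6), 250 bases before to 50 after each annotated start, were held for 14 of these 17 genes, and 4 contained a match. They are shown 5′ to 3′ on the gene's strand up to the annotated start, or up to the end of a match that passes it, with each match in capitals. Socs3 is at chr11:117969367-117969616 (minus strand), Cish at chr9:107296409-107296678 (plus strand), Icam1 at chr9:21015690-21015939 (plus strand) and Zfp36, an mRNA decay factor of the immediate early list, at chr7:28379229-28379478 (minus strand).
Socs3: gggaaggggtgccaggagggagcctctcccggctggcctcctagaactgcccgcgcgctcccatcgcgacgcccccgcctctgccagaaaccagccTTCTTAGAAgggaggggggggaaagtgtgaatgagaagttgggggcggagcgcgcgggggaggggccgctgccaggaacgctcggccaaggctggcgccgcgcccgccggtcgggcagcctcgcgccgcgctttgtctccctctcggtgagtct
Cish: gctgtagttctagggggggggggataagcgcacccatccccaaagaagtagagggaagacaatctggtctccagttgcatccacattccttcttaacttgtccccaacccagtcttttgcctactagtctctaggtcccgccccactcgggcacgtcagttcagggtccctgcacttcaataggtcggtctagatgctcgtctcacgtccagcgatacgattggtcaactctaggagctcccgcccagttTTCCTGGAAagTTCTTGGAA
Icam1: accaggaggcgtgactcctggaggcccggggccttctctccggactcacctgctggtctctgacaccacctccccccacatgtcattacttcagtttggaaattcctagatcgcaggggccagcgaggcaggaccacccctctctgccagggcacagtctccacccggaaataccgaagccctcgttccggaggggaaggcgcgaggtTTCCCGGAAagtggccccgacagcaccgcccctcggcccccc
Zfp36: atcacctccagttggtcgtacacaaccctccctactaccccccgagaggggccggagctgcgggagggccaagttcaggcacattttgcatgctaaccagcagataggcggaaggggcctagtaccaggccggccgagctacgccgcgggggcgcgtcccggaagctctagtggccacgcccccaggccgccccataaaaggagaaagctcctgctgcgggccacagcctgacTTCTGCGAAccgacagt

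The match begins 154 bases before the annotated start in Socs3, 42 before it in Icam1 and 17 before it in Zfp36, and Cish holds 2 matches, at the start and 11 bases after it. The same letters occur in 8.30% of all 32851 RefSeq promoters, which belong to 27025 genes, so this share counts promoters while the matches above were counted by gene. Among measured autosomal genes they occur in 7.51% of promoters of genes called higher in stimulated GY118F EpiSCs, 6.32% of those called lower and 6.46% of those without a call. A match is a description of the letters in this window and not of a binding site.

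Of 20 measured JAK-STAT receptors, kinases and STATs, 4 were higher and 2 lower, with a median of 0.08, where 16.7% of all autosomal features were higher and 15% lower. Of the 18 on neither chromosome 2 nor 11, 3 were higher and 2 lower. Besides Stat3, the receptor kinase Jak2 was higher by 0.41 ± 0.07 (SE), from arrays at 8.43 and 8.34 in stimulated GY118F EpiSCs and 8.09, 7.86 and 7.97 in stimulated control EpiSCs. The kinase Tyk2 was higher by 0.18. Il6st, which encodes gp130, was at 7.65 in both stimulated GY118F arrays, against 7.43, 7.50 and 7.50 in the stimulated control arrays, a difference of 0.17 (limma adjusted p = 0.0439). The Il6st call was lost without any 1 of 7 arrays, namely both stimulated GY118F arrays, all 3 stimulated control arrays and unstimulated control replicates 1 and 3 (limma adjusted p = 0.0549 to 0.141). It was also lost with a replicate block, with array weights and with only the groups compared (limma adjusted p = 0.0641, 0.0797 and 0.0514). Gab1, an adaptor that carries gp130 signals toward ERK, was lower by 0.39, and the phosphatase Ptpn6 by 0.33.

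**Figure D2:**
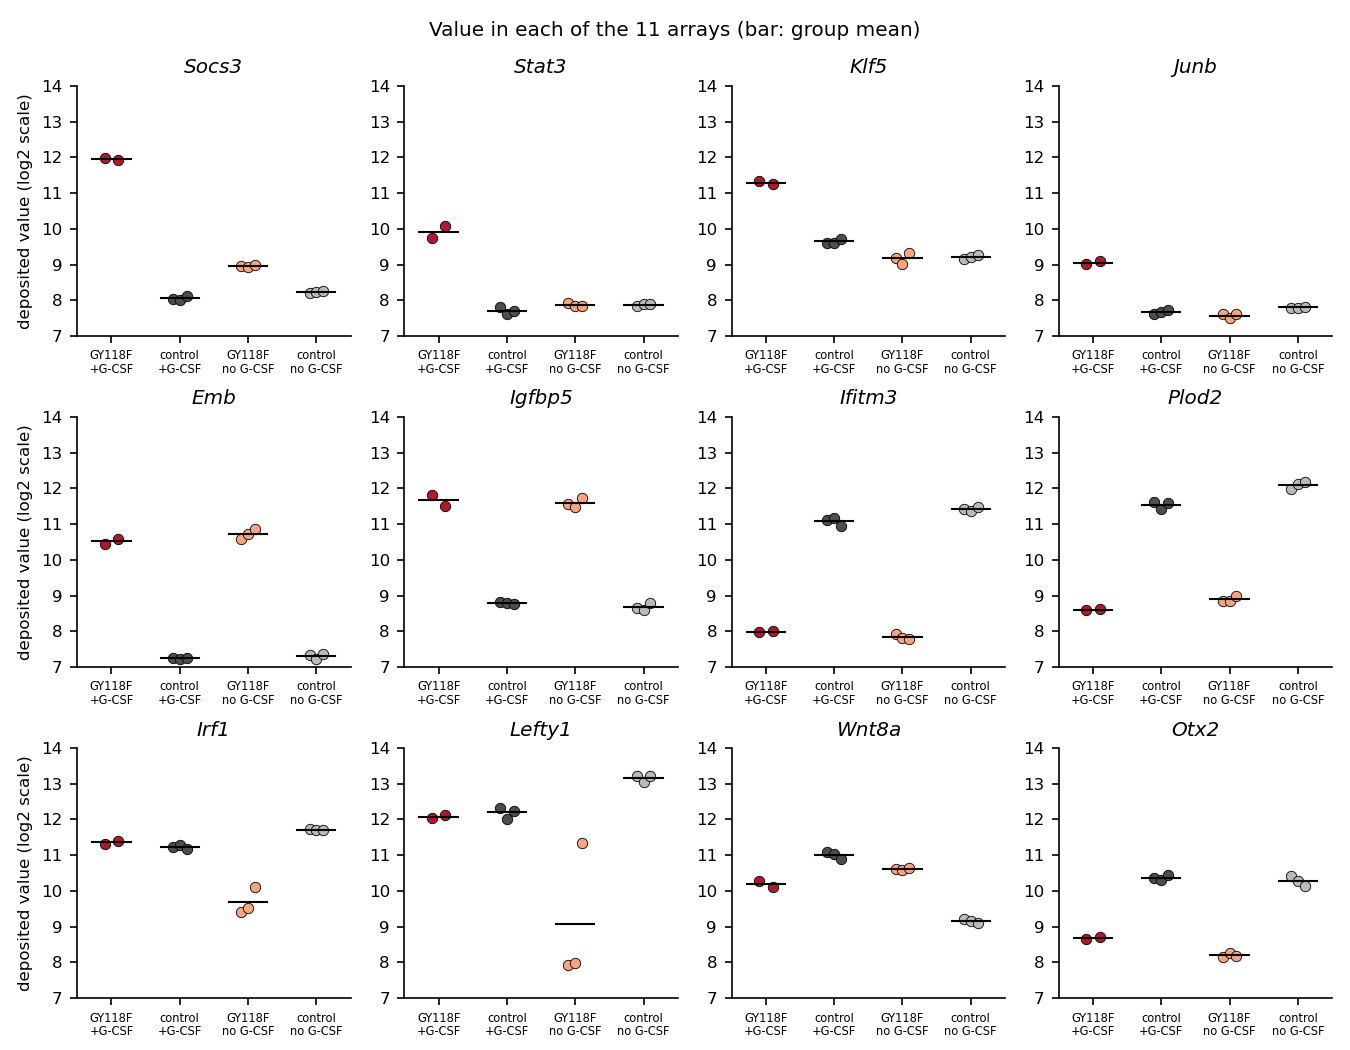
Deposited value on the log2 scale (vertical axis) of 12 genes in each of the 11 arrays, by group, with a bar at the group mean. Socs3, Stat3, Klf5 and Junb stand high in the stimulated GY118F arrays, Emb, Igfbp5, Ifitm3, Plod2 and Otx2 separate the lines with and without G-CSF, and Irf1 and Lefty1 lie further apart between the lines without G-CSF than with it.

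Most immediate early genes were higher in stimulated GY118F EpiSCs. Of 13 measured AP-1 and EGR genes, 9 were higher and 1 lower, with a median difference of 0.57, where 16.7% of all autosomal features were higher. Without G-CSF 1 was higher, 5 were lower and the median was -0.05, where the shares over all autosomal features were 17.7% and 17.5%. None of the 13 lies on chromosome 2 or 11. Junb was at 9.01 and 9.09 in stimulated GY118F arrays, against 7.63, 7.67 and 7.73 in stimulated control arrays, so the groups were well apart (limma adjusted p = 1.96e-09). Zfp36 was higher by 1.24, Fosl2 by 1.12 and Jun by 0.68. Klf6 was higher by 0.66, although its dimmer probe gave 0.12 without a call, and Egr3 was higher by 0.57. The stress-induced factor Atf3 was the lower gene, by 0.68 with G-CSF and by 0.64 without, and Egr1 was at 0.06 without a call.

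Of 17 measured FGF ligands, receptors and ERK feedback genes, 7 were higher and 3 lower, with a median of 0.11, where 16.7% of all autosomal features were higher and 15% lower. Of the 14 on neither chromosome 2 nor 11, 6 were higher and 1 lower. The ERK-induced genes Phlda1, Dusp4 and Dusp5, of which the Dusp products are phosphatases of MAP kinases, were higher by 1.18, 0.86 and 0.85, and the ligand Fgf17 by 0.82. Fgf5, a ligand and marker of the postimplantation epiblast, was at 9.46 and 9.43 in stimulated GY118F EpiSCs, against 10.65, 10.60 and 10.62 in stimulated control EpiSCs. The difference was -1.18 ± 0.13 (SE, limma adjusted p = 1.45e-05), and -1.41 without G-CSF. Spry4 at -0.05 and Dusp6 at -0.01 were not called. Fgf8, a ligand of the gastrulating embryo, was at -0.20 without a call with G-CSF and lower by 1.66 without it, and its dimmer probe was called lower with G-CSF, at -0.16 (limma adjusted p = 0.0459).

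Several of the largest positive differences were of similar size without G-CSF. Emb, which encodes the adhesion glycoprotein embigin, was at 10.44 and 10.59 in stimulated GY118F EpiSCs, against 7.25, 7.23 and 7.26 in stimulated control EpiSCs. Its difference was 3.27 ± 0.08 (SE, limma adjusted p = 1.99e-11) with G-CSF and 3.41 without. Igfbp5, a binding protein of insulin-like growth factors, was at 11.82 and 11.52 in stimulated GY118F EpiSCs, against 8.83, 8.79 and 8.76 in stimulated control EpiSCs. It was higher by 2.88 ± 0.09 (SE) with G-CSF and by 2.92 without, and the retinoic acid binding protein Crabp1 was higher by 2.04 and 2.33. The microfibril protein Mfap2 was higher by 1.90 and 2.01 and the glutathione transferase Gstp1 by 1.71 and 1.60. For none of these 5 genes was the difference between the G-CSF states called (limma interaction adjusted p = 0.229 to 0.935). Epdr1, an ependymin-related gene, was higher by 1.65 with G-CSF and by 1.92 without.

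En1, En2, Ptn and Sox21 were also among the 15 largest positive differences. The engrailed homeobox gene En1 was at 10.21 and 9.87 in stimulated GY118F EpiSCs, against 7.29, 7.32 and 7.24 in stimulated control EpiSCs. Its difference was 2.76 ± 0.09 (SE) with G-CSF and 1.60 without, and that of its paralogue En2 was 1.78 and 0.56. In both engrailed genes the difference was larger with G-CSF, by 1.16 and 1.22 (limma interaction adjusted p = 0.000155 and 0.000105). Ptn, a secreted growth factor of the developing nervous system, was higher by 2.55 with G-CSF and 3.27 without, and the neural factor Sox21 by 1.68 and 2.00.

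Of 14 measured neural and ectoderm genes, 8 were higher and 1 lower with G-CSF, with a median of 0.45, where 16.7% of all autosomal features were higher. Without it 11 were higher and 1 lower, with a median of 0.86, where the shares were 17.7% and 17.5%. Of the 10 on neither chromosome 2 nor 11, 4 were higher and 1 lower. Ngfr, the low-affinity neurotrophin receptor on chromosome 11, was at 9.65 and 9.57 in stimulated GY118F EpiSCs, against 8.18, 8.20 and 8.08 in stimulated control EpiSCs. It was higher by 1.45 with G-CSF and lower by 0.27 without. Sall3, a spalt-type zinc finger factor, was the lower member at -0.93, and it was higher without G-CSF, at 0.58. Among 9 measured HOX and TALE homeobox genes, 6 were higher and 1 lower with G-CSF, where 16.7% of all autosomal features were higher and 15% lower. The list medians were 0.40 with and 0.90 without G-CSF, and 3 of the 4 members on other chromosomes than 2 and 11 were higher with G-CSF. Meis1 was higher by 1.15, Hoxa2 by 0.61 and Irx2 by 0.50. Of 10 listed neural progenitor markers only 2 were measured, Hes5 and Nes, at -0.01 and -0.11 without a call. Hes5 averaged 7.39 over all arrays, close to the lowest deposited value of 7.11.

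Tfap2c, a factor of trophoblast, germ cells and naive pluripotent cells, was at 10.55 and 10.42 in stimulated GY118F EpiSCs, against 8.65, 8.62 and 8.69 in stimulated control EpiSCs. The groups stood far apart, with a difference of 1.83 ± 0.06 (SE, limma adjusted p = 2.10e-10), while without G-CSF it was 0.78. Tfap2c, which lies on chromosome 2, was the only higher one of the 4 measured trophoblast markers. Eomes was lower by 0.69, and Krt7 and Cdx2 were at -0.09 and -0.14 without a call. Over all autosomal features 16.7% were higher and 15% lower. Of the 3 trophoblast markers on neither chromosome 2 nor 11, 0 were higher and 1 lower.

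**Figure D3:**
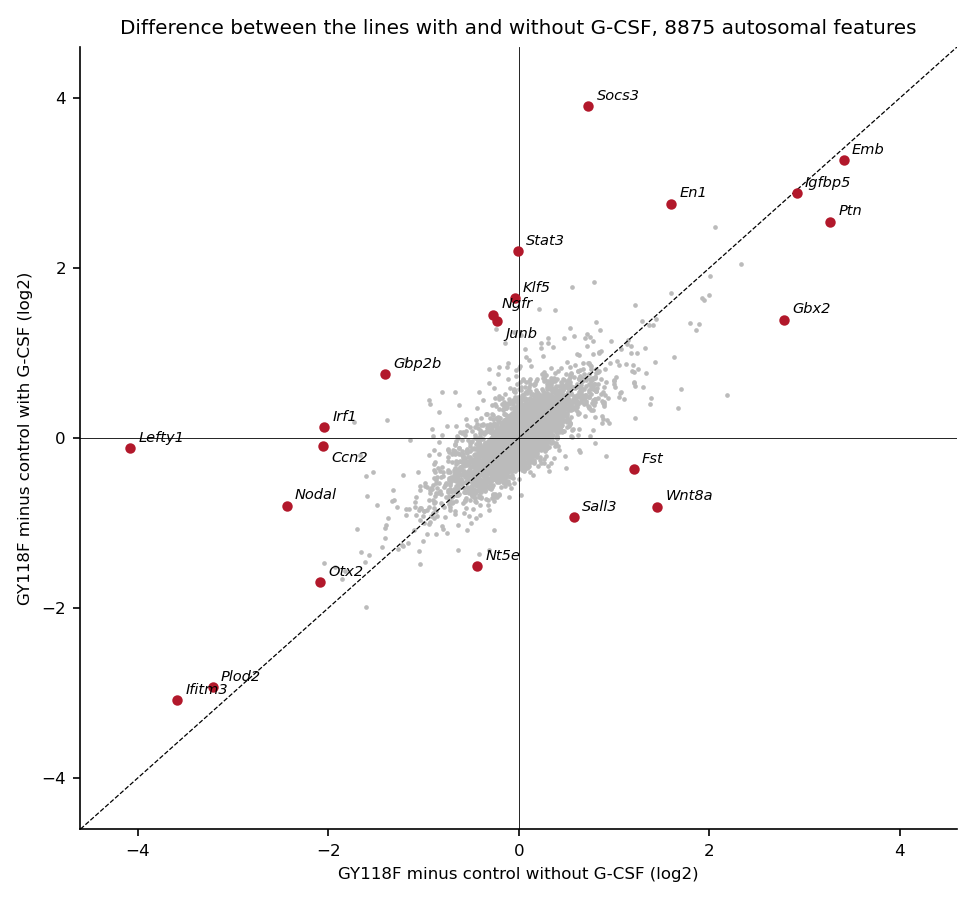
Difference between GY118F and control EpiSCs without G-CSF (horizontal axis) and with G-CSF (vertical axis), both log2, for 8875 autosomal features, with named genes in red and the line of equality dashed. Emb, Igfbp5, Ifitm3 and Plod2 lie along the line, Socs3, Stat3, Klf5 and Junb above it, and Lefty1 and Irf1 near 0 on the vertical axis.

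The most negative differences were in Ifitm3, an interferon-induced membrane protein that restricts viruses, and Plod2, a collagen-modifying enzyme. Ifitm3 was at 7.99 in both stimulated GY118F arrays, against 11.11, 11.17 and 10.96 in the stimulated control arrays. Ifitm3 was lower by 3.09 ± 0.07 on the log2 scale (SE), 8.50-fold, with a limma adjusted p of 1.60e-11, and its difference without G-CSF was -3.58. Plod2, which hydroxylates lysines, was at 8.59 and 8.61 in stimulated GY118F EpiSCs, against 11.61, 11.41 and 11.58 in stimulated control EpiSCs. It was lower by 2.93 ± 0.08 (SE) with G-CSF and had -3.21 without. Of the same family, Ifitm1 gave -1.66 with G-CSF and -1.85 without, and Ifitm2 was at 0.04 without a call.

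Other large negative differences were also present without G-CSF. The ubiquitin ligase Obi1 was at -1.98 with and -1.61 without G-CSF, and the efflux transporter Abcc4 at -1.51 and -1.93. Ccdc167 gave -1.46 and -1.62, Inava, an activator of innate immunity, gave -1.38 and -1.57, and the trypsin inhibitor Spink1 gave -1.35 and -1.65. The haematopoietic cofactor Lmo2 had -1.48 and -1.03, and Ass1, the argininosuccinate synthase, -1.33 and -1.05; both lie on chromosome 2. Car14, a carbonic anhydrase, had -1.32 and -0.64, but its dimmer probe gave -0.13 with G-CSF and no call.

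Nt5e and Slpi differed more with G-CSF than without. Nt5e, the ecto-enzyme that makes adenosine, was at 8.58 and 8.54 in stimulated GY118F EpiSCs, against 10.15, 10.10 and 9.93 in stimulated control EpiSCs, a difference of -1.50 ± 0.08 (SE). In unstimulated cells it was at 7.81, 7.98 and 8.03 in GY118F EpiSCs, against 8.45, 8.34 and 8.35 in control EpiSCs. The line difference with G-CSF minus that without was -1.07 ± 0.10 (SE, limma interaction adjusted p = 5.21e-05). Slpi, a secreted protease inhibitor on chromosome 2, gave -1.36 with G-CSF and -0.42 without.

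Interferon-related genes showed opposite directions within 1 list. Of 16 measured Irf1 and interferon-inducible genes, 5 were higher and 5 lower with G-CSF, with a median of 0.08, where 16.7% of all autosomal features were higher and 15% lower. Without it 1 was higher and 11 lower, with a median of -0.67, where the shares were 17.7% and 17.5%. Of the 13 on neither chromosome 2 nor 11, 4 were higher and 5 lower with G-CSF. The restriction factor Bst2 was higher by 1.38, with arrays at 9.16 and 9.34 in stimulated GY118F EpiSCs and 7.72, 7.79 and 8.10 in stimulated control EpiSCs, and by 1.29 without G-CSF. The GTPases Gbp2b, Igtp and Gbp3 were higher by 0.75, 0.54 and 0.45 with G-CSF and lower by 1.40, 0.81 and 0.38 without. Psmb8, a subunit of the immunoproteasome, was at -1.47 with G-CSF and -2.05 without, and the ubiquitin-like Isg15 at -0.40 and -1.06.

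Irf1, an interferon-inducible transcription factor, did not pass the test between the stimulated lines. It was at 11.32 and 11.40 in stimulated GY118F EpiSCs, against 11.24, 11.29 and 11.18 in stimulated control EpiSCs, so these arrays did not overlap. The difference was 0.13 ± 0.15 (SE, limma adjusted p = 0.579), and its 4 other probes gave -0.04 to 0.19 without a call. The SE uses the spread of all groups, and the SD was 0.058 and 0.052 in stimulated GY118F and control EpiSCs and 0.37 in unstimulated GY118F EpiSCs. Without G-CSF Irf1 was at 9.41, 9.51 and 10.10 in GY118F EpiSCs, against 11.73, 11.71 and 11.70 in control EpiSCs. The unstimulated groups did not overlap (difference -2.04), and the change in the line difference was 2.17 ± 0.20 (SE, limma interaction adjusted p = 2.50e-05), or 2.38 without unstimulated GY118F replicate 3. Gbp2, an interferon-inducible GTPase, behaved alike, at 0.19 without a call with G-CSF and -1.73 without.

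The general pluripotency genes Pou5f1 and Nanog were lower. Pou5f1, which encodes Oct4, was at 12.00 and 12.16 in stimulated GY118F EpiSCs, against 12.92, 12.61 and 12.76 in stimulated control EpiSCs. It was lower by 0.68 ± 0.09 (SE, limma adjusted p = 6.61e-05) with G-CSF and by 0.74 without. Nanog was at 10.37 and 10.52 in stimulated GY118F EpiSCs, against 10.80, 11.11 and 11.09 in stimulated control EpiSCs, a difference of -0.56 ± 0.17 (SE, limma adjusted p = 0.0228). The Nanog call was lost with a floor on low values (limma adjusted p = 0.0955), with a trended robust prior (limma adjusted p = 0.0695) and without any of 4 arrays, namely stimulated GY118F replicate 2 or 3 or stimulated control replicate 2 or 3 (limma adjusted p = 0.0526 to 0.144). With 1 array left out its difference stayed between -0.65 and -0.48, and its other probe gave -0.73 (limma adjusted p = 0.00115).

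Of 12 measured general pluripotency genes, 0 were higher and 3 lower with G-CSF, the third being Utf1 at -0.52, and the median was -0.21. Over all autosomal features 16.7% were higher and 15% lower. Sox2 and Lin28a were at 0.13 and -0.25 without a call. Of the 6 measured naive pluripotency genes 2 were higher and 2 lower. Gbx2, a homeobox gene that supports the naive state, was at 13.32 and 13.21 in stimulated GY118F EpiSCs, against 11.99, 11.74 and 11.87 in stimulated control EpiSCs. It was higher by 1.39 with G-CSF and by 2.78 without, Klf5 was the other higher gene, and Dppa4 and Klf2 were lower by 0.32 and 0.23. The Klf2 call was lost without stimulated GY118F replicate 3, stimulated control replicate 1 or 3 or unstimulated control replicate 1 (limma adjusted p = 0.0514 to 0.239), with a replicate block and with array weights (limma adjusted p = 0.0715 and 0.0571).

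Otx2, the forebrain and epiblast homeobox factor that is held opposite Gbx2 in the neural plate, was at 8.64 and 8.71 in stimulated GY118F EpiSCs, against 10.35, 10.31 and 10.45 in stimulated control EpiSCs. It was lower by 1.69 ± 0.07 (SE, limma adjusted p = 5.21e-09) with G-CSF, and its difference without was -2.09. In all, 6 of 12 measured EpiSC and postimplantation epiblast genes were lower and 0 higher with G-CSF, with a median of -0.23, where 15% of all autosomal features were lower. Otx2, Fgf5, Nodal, Eomes, Fst and Cer1 were the lower genes. The epiblast methyltransferase Dnmt3b was at 13.61 and 13.27 in stimulated GY118F EpiSCs, against 13.67, 13.64 and 13.45 in stimulated control EpiSCs, and had no call. Of the markers listed for EpiSCs, Pou5f1, Nanog, Dnmt3b, Otx2, Fgf5 and Nodal stood above the array median in every stimulated array of both lines. All of these but Dnmt3b were called lower in stimulated GY118F EpiSCs, and Pou5f1 and Nanog are general pluripotency genes. In bulk RNA, fewer cells of a type and less RNA per cell cannot be told apart.

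Lefty1 and Nodal differed less between the lines with G-CSF than without, by 3.97 ± 0.97 and 1.64 ± 0.36 (SE, limma interaction adjusted p = 0.0295 and 0.018). Lefty1, a secreted Nodal antagonist, was at 12.03 and 12.13 in stimulated GY118F EpiSCs, against 12.33, 12.02 and 12.23 in stimulated control EpiSCs. The groups overlapped, with a difference of -0.11 ± 0.72 (SE, limma adjusted p = 0.932). This SE rests on 1 spread shared by all 4 groups. The SD of Lefty1 was 0.07 and 0.16 in stimulated GY118F and control EpiSCs and 1.95 in unstimulated GY118F EpiSCs. Without G-CSF Lefty1 was at 7.93, 7.97 and 11.34 in GY118F EpiSCs, against 13.22, 13.04 and 13.22 in control EpiSCs, so that GY118F replicate 3 stood apart from its group in the unstimulated state. The same array was highest of its group in Nodal, Irf1, Gbp2 and Fgf8. Without it the interaction was 5.09 in Lefty1 and 2.06 in Nodal, while with any 1 of 9 other arrays left out the Lefty1 interaction was not called (limma adjusted p up to 0.0863).

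Nodal was at 9.86 and 9.89 in stimulated GY118F EpiSCs, against 10.72, 10.71 and 10.59 in stimulated control EpiSCs. The SD of Nodal was 0.015 and 0.073 in stimulated GY118F and control EpiSCs and 0.73 in unstimulated GY118F EpiSCs, which also enters the SE. The stimulated Nodal arrays did not overlap, and the difference was -0.80 ± 0.27 (SE, limma adjusted p = 0.0423), against -2.44 without G-CSF. Its call was lost without either stimulated GY118F array or any control array, stimulated or not (limma adjusted p = 0.0531 to 0.151), and with a floor on low values (limma adjusted p = 0.147). Of 15 measured Nodal and Activin pathway genes, 3 were higher and 5 lower, with a median of -0.11, where 16.7% of all autosomal features were higher and 15% lower. The proprotein convertase Furin, which cleaves the Nodal precursor, was higher by 0.60 and the signal transducer Smad3 by 0.33 (0.12 without a call at its dimmer probe), while the ligand Gdf3 was lower by 0.39. The coreceptor Tdgf1 was at 0.11 without a call, and its sign depended on the arrays used.

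Fst, which encodes the Activin-binding protein follistatin, turned round between the states. It was at 10.72 and 10.81 in stimulated GY118F EpiSCs, against 11.18, 11.03 and 11.18 in stimulated control EpiSCs, a difference of -0.37 (limma adjusted p = 0.0167) that was lost without stimulated GY118F replicate 2 (limma adjusted p = 0.116) and with a floor on low values (limma adjusted p = 0.0644). Without G-CSF it was higher by 1.21 in GY118F EpiSCs.

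Primitive streak genes were mostly lower. Of 14 measured members 8 were lower and 1 higher with G-CSF, with a median of -0.28, where 15% of all autosomal features were lower and 16.7% higher. Without G-CSF 6 were lower and 6 higher, with a median of -0.09, where the shares were 17.5% and 17.7%. Of the 10 on neither chromosome 2 nor 11, 6 were lower and 0 higher with G-CSF. Evx1, a homeobox gene of the posterior streak, was at 8.41 and 8.39 in stimulated GY118F EpiSCs, against 9.83, 9.69 and 9.63 in stimulated control EpiSCs. Its difference was -1.31 ± 0.07 (SE, limma adjusted p = 2.23e-08) with G-CSF and -0.31 without. Lhx1 was lower by 0.74, Eomes by 0.69 and Gsc by 0.53, all transcription factors of the mesendoderm.

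The streak ligand Wnt8a had opposite signs in the 2 states. It was at 10.28 and 10.11 in stimulated GY118F EpiSCs, against 11.10, 11.02 and 10.90 in stimulated control EpiSCs, a difference of -0.81 ± 0.07 (SE, limma adjusted p = 1.92e-06). Without G-CSF it was at 10.60, 10.58 and 10.63 in GY118F EpiSCs, against 9.20, 9.14 and 9.09 in control EpiSCs. The groups did not overlap in either state, and the change in the line difference was -2.26 ± 0.09 (SE, limma interaction adjusted p = 1.83e-08).

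Of 16 measured WNT ligands, receptors and targets, 7 were higher and 4 lower, with a median of 0.16, where 16.7% of all autosomal features were higher and 15% lower. Of the 11 on neither chromosome 2 nor 11, 4 were higher and 3 lower. The transcription factor Tcf7l1 was higher by 0.67, the feedback gene Axin2 on chromosome 11 by 0.64 and the Frizzled receptor Fzd10 by 0.54. Fzd10 was lower by 0.67 without G-CSF. Ccnd1, which encodes cyclin D1, was at 10.57 and 10.58 in stimulated GY118F EpiSCs, against 11.45, 11.43 and 11.33 in stimulated control EpiSCs. This gave -0.83 with G-CSF, against -1.03 without.

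**Figure D4:**
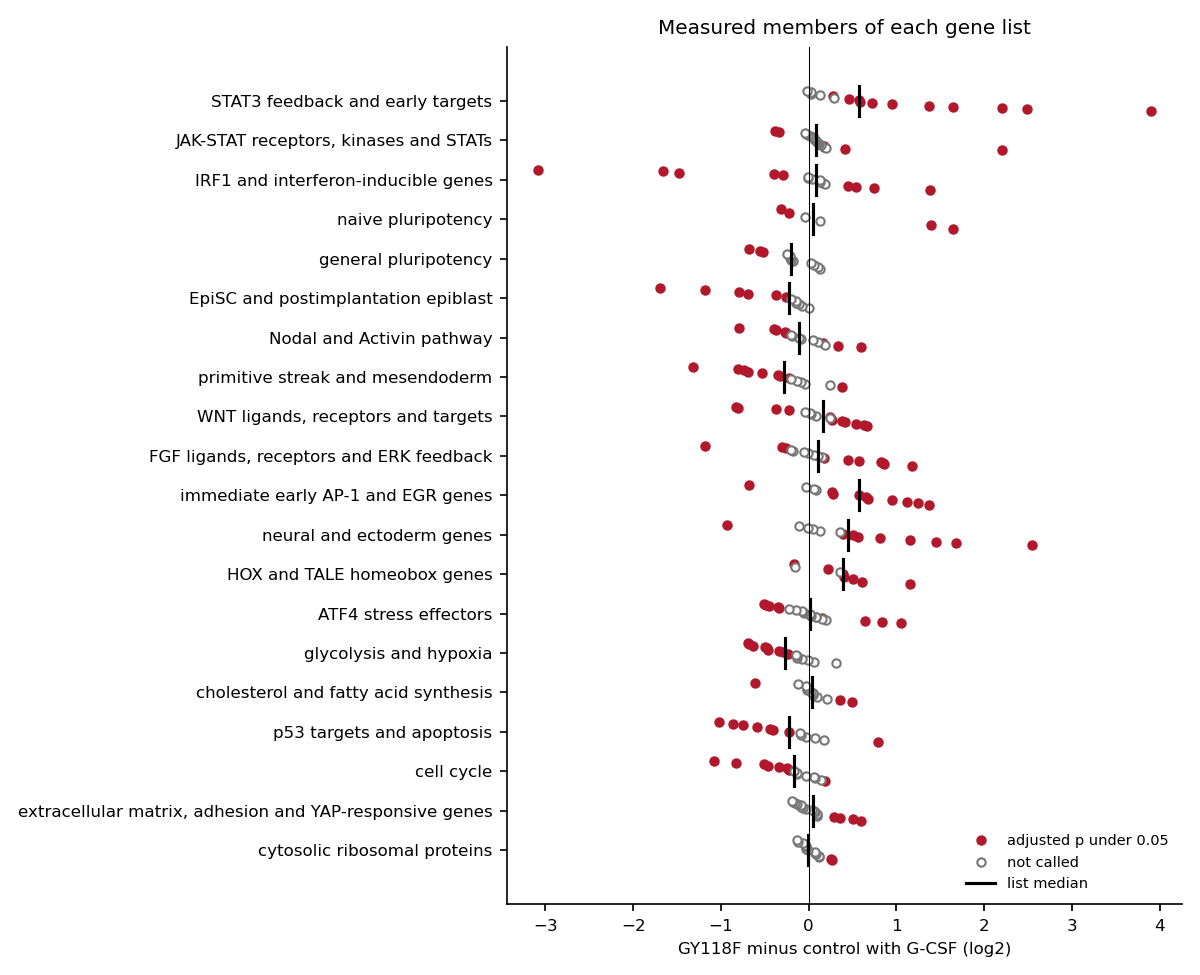
Difference between stimulated GY118F and stimulated control EpiSCs (horizontal axis, log2) for each measured member of the gene lists (rows), filled where called by limma at adjusted p under 0.05, with the list median as a bar. The STAT3 and immediate early lists have medians of 0.58 and 0.57, and the EpiSC and streak lists of -0.23 and -0.28.

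Of 16 measured genes of glucose use and hypoxia, 9 were lower and 0 higher in stimulated GY118F EpiSCs, with a median of -0.27, where 15% of all autosomal features were lower. Without G-CSF 6 were lower and the median was -0.10, where 17.5% of all autosomal features were lower. Of the 14 on neither chromosome 2 nor 11, 8 were lower with G-CSF. The oxygen sensor Egln3 was at 8.10 and 8.09 in stimulated GY118F EpiSCs, against 8.75, 8.80 and 8.81 in stimulated control EpiSCs, a difference of -0.69 ± 0.08 (SE, limma adjusted p = 2.55e-05). The glucose transporter Slc2a1 was lower by 0.68, the kinase Pdk1 by 0.63 and the aldolase Aldoa by 0.49. Vegfa, the angiogenic hypoxia target, was at 0.31 and the enzyme Gapdh at -0.01, both without a call.

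Genes of the ATF4 stress list, which also holds other stress genes such as Xbp1, had no common direction. Of 21 measured members 4 were higher and 5 lower, with a median of 0.01, where 16.7% of all autosomal features were higher and 15% lower. Of the 16 on neither chromosome 2 nor 11, 1 was higher and 5 lower. Xbp1, a factor of the unfolded protein response on chromosome 11, was at 11.46 and 11.44 in stimulated GY118F EpiSCs, against 10.37, 10.55 and 10.30 in stimulated control EpiSCs. It was higher by 1.05 ± 0.07 (SE, limma adjusted p = 1.58e-07) with G-CSF and at 0.07 without a call in unstimulated cells. Herpud1, a gene of protein degradation at the endoplasmic reticulum, was higher by 0.84, and the glutathione-degrading enzyme Chac1 by 0.65. Without G-CSF both were lower, by 0.21 and 0.32. Both lines stood at other levels in the 2 states. Chac1 averaged 8.85 and 8.20 in stimulated GY118F and control EpiSCs, and 12.84 and 13.16 in unstimulated ones. Herpud1 averaged 9.79 and 8.96 in stimulated GY118F and control EpiSCs, and 11.06 and 11.27 in unstimulated ones. Atf5 was lower by 0.51, a call that ended without stimulated GY118F replicate 2 (limma adjusted p = 0.120) and with a floor on low values (limma adjusted p = 0.0533), and the serine synthesis enzyme Psat1 was lower by 0.49.

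Among 13 measured p53 targets and apoptosis genes 7 were lower and 1 higher with G-CSF, where 15% of all autosomal features were lower and 16.7% higher. Their median was -0.22 with G-CSF and -0.21 without. Of the 9 on neither chromosome 2 nor 11, 6 were lower and 0 higher with G-CSF. Phlda3, a p53-induced inhibitor of AKT, was at 8.80 and 8.83 in stimulated GY118F EpiSCs, against 9.85, 9.66 and 9.99 in stimulated control EpiSCs, and was lower by 1.02. The cell cycle inhibitor Cdkn1a was lower by 0.86 and Trp53inp1 by 0.75. Bcl2l11, which encodes the death factor BIM, was the higher gene at 0.80, with its other probes at 0.65 with a call and 0.09 without.

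Of 15 measured cell cycle genes 7 were lower and 1 higher, with a median of -0.16, where 15% of all autosomal features were lower, and of the 12 on neither chromosome 2 nor 11, 5 were lower and 1 higher. Ccnd2, which encodes cyclin D2, was at 9.82 and 9.74 in stimulated GY118F EpiSCs, against 10.85, 10.91 and 10.83 in stimulated control EpiSCs. This gave -1.08 with G-CSF, against -0.25 without. The mitotic genes Cdc20 and Plk1 were lower by 0.51 and 0.46.

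Of 18 extracellular matrix, adhesion and YAP-responsive genes 4 were higher and 0 lower, where 16.7% of all autosomal features were higher and 15% lower, and of the 13 on neither chromosome 2 nor 11, 2 were higher. The laminin Lama1 was at 0.60 and vimentin, Vim, at 0.51. Ccn2, a YAP target, was at -0.09 without a call with G-CSF and at -2.06 without. Of 12 cholesterol and fatty acid synthesis genes 2 were higher and 1 lower (1 and 1 of the 10 on neither chromosome), with the sterol demethylase Cyp51 at 0.49, Acly at 0.35 and the desaturase Scd1 at -0.61. Of 15 cytosolic ribosomal protein genes 2 were higher and 0 lower (1 and 0 of the 13 on neither chromosome), with Rpl23 on chromosome 11 at 0.27 and Rplp0 at 0.25. The other probes of Rpl23 gave 0.44 with a call and -0.15 without.

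Few markers of other cell types were among the 15718 deposited probes, which need not be all probes of the arrays. Of 12 listed fibroblast markers 5 were measured, with 1 higher and 1 lower, where 16.7% of all autosomal features were higher and 15% lower. The mean level of these markers per array was 7.87 to 7.95 in stimulated GY118F EpiSCs and 7.90 to 7.96 in stimulated control EpiSCs. The matrix proteoglycan Dcn was higher by 0.77 and the surface antigen Thy1 lower by 0.62. Of 11 listed endoderm markers 5 were measured, with 1 higher and 2 lower, at mean levels of 7.47 to 7.49 in stimulated GY118F EpiSCs and 7.64 to 7.65 in stimulated control EpiSCs. Of 11 listed haematopoietic markers 2 were measured, and Tal1 was lower by 0.59, with the list at 7.29 to 7.34 in stimulated GY118F EpiSCs and 7.63 to 7.65 in stimulated control EpiSCs. Both measured mesoderm markers were without a call, and the trophoblast markers had mean levels of 8.53 to 8.63 in stimulated GY118F EpiSCs and 8.30 to 8.45 in stimulated control EpiSCs. Since arrays give no true 0, these levels set no share of such cells.

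Most calls between the stimulated lines were also made between the unstimulated lines, where 1568 autosomal features were higher (17.7%) and 1550 lower (17.5%). Of the 1481 features higher with G-CSF, 972 were also higher without it, which is 65.6% of the calls with G-CSF and 62.0% of those without, while 464 had no call without G-CSF and 45 were lower. Of the 1329 lower with G-CSF, 878 were also lower without it, 66.1% and 56.6% of the calls in the 2 states, while 438 had no call and 13 were higher. Conversely, 583 features higher and 627 lower without G-CSF had no call with it. Across the 8875 features the differences in the 2 states correlated with a Pearson r of 0.739 and a Spearman rho of 0.685; the 2 contrasts share no array, but they share the lines, the chromosome shifts and the probes.

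A call in 1 state and not in the other does not show that the line difference changed, so the change was tested as the interaction of line and G-CSF. It was called upward in 366 autosomal features (4.12%) and downward in 203 (2.29%). The control line, for which the labels list no transgene, also differed between the states. Its arrays with G-CSF correlated with those without at 0.977 to 0.982, and Gbx2 averaged 11.87 in stimulated and 9.59 in unstimulated control EpiSCs. A change in the line difference therefore holds the changes of both lines. Beyond the genes above, differences that were higher with G-CSF and lower without included the costimulatory receptor Cd40 at 0.92 and -1.18 (its dimmest probe was at 0.16 without a call with G-CSF), the GTPase Irgm2 at 0.21 and -1.38, and Pdzrn3, a ubiquitin ligase, at 0.81 and -0.32. Differences that were lower with G-CSF and higher without included Spsb4 at -0.35 and 0.50, Rapgef5 at -0.39 and 0.32 and Foxo1, a forkhead factor under AKT control, at -0.22 and 0.22. These genes were picked by the size of the change after their values were seen.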

How the data were processed

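Total RNA, isolated with a Qiagen RNeasy kit, was amplified, labelled with biotin and hybridised to Illumina arrays, per the labels' protocols. The authors deposited log2-like values. The submitters' processing notes name lumi; its version and the transformation (plain log2 or variance stabilizing) are not given in the sources used here. The sorted columns of the deposited table differ by at most 0.00116, so the values had been quantile-normalized, and differences in total RNA are no longer in them.

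GEO's platform annotation gave 1 symbol for 13711 probes, several for 5 and none for 2002; a RefSeq table, used for names and chromosomes, changed 0 symbols and held no entry for 13 probes. The probe with the highest mean stood for each of 9201 symbols, and 2007 probes with no symbol or several entered as themselves.

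All 11 arrays in 4 groups were fitted with limma 3.58.1 (lmFit, eBayes) in R 4.3.3, two-sided, with Benjamini-Hochberg adjustment over 11208 features at 0.05. Stimulated GY118F replicates are numbered 2 and 3 after their source names, while their titles number them otherwise. Stimulated control replicates are numbered after their titles, because their source names all give the same replicate number. No replicate block was used. On simulated data with 11208 features, 25, 49, 50 and 50 of 50 features changed 1.2-, 1.4-, 2- and 4-fold were recovered for the stimulated contrast with 12 false calls, and 14, 42, 50 and 50 for the interaction with 8.

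Named are the 15 largest and 15 most negative differences among called autosomal features whose arrays do not overlap, without provisional symbols, 10 fixed genes, and members of 26 gene and marker lists. Members and lists were chosen with earlier results of these data known. Alternatives were all probes, only the groups compared, array weights, blocks on either replicate numbering, trended robust eBayes, quantile normalization once more, no dimmer 50 percent, low values raised to the 25th percentile, thresholds of 0.01 and of 1.4-fold, leaving out each array, and, chosen after seeing the data, leaving out chromosomes 2 and 11.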

Additional observations from a re-analysis of the deposited data

Results flagged for a closer look

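Of 149 named autosomal genes, 74 had a line difference between GY118F and control EpiSCs that was not the same with G-CSF as without it, 50 upward and 24 downward, by the limma interaction test (Benjamini-Hochberg adjusted p under 0.05). Over all autosomal features 4.12% changed upward and 2.29% downward, and many of these genes were named for their differences. Each value is the log2 line difference with G-CSF minus that without. Among STAT3 feedback genes, early targets and immediate early genes, the change was 3.18 in Socs3, 2.21 in Stat3, 1.69 in Klf5, 1.61 in Junb, 1.29 in Zfp36, 1.26 in Fosl2, 0.92 in Cebpb, 0.87 in Fos, 0.84 in Icam1 and 0.76 in Socs2. It was 0.64 in Jun, 0.64 in Klf6, 0.61 in Ier3, 0.54 in Cish, 0.49 in Bcl3 and 0.43 in Gadd45g. Interferon-related genes changed by 2.17 in Irf1, 2.15 in Gbp2b, 1.93 in Gbp2, 1.60 in Irgm2, 1.35 in Igtp, 0.83 in Gbp3, 0.66 in Isg15, 0.57 in Psmb8 and 0.49 in Ifitm3.

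Upward changes in signalling and epiblast genes were 3.97 in Lefty1, 1.64 in Nodal, 1.46 in Fgf8, 1.22 in Fzd10, 0.84 in Dusp5, 0.74 in Lefty2, 0.49 in Fgf17, 0.48 in Phlda1, 0.40 in Tcf7l1 and 0.39 in Otx2. En2 changed by 1.22, En1 by 1.16, Tfap2c by 1.05 and Ngfr by 1.72. Upward changes in other genes were 2.10 in Cd40, 1.97 in Ccn2, 1.53 in Bhlhe40, 1.19 in Lmna, 1.13 in Pdzrn3, 1.05 in Herpud1, 0.98 in Xbp1, 0.96 in Chac1, 0.82 in Bcl2l11, 0.70 in Cyp51 and 0.30 in Lama1.

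Downward changes in transcription factors and developmental ligands were -2.26 in Wnt8a, -1.58 in Fst, -1.51 in Sall3, -1.39 in Gbx2, -1.004 in Evx1, -0.77 in Cdx2, -0.72 in Ptn, -0.49 in Irx5, -0.45 in Foxo1, -0.44 in Lmo2, -0.40 in Irx2, -0.36 in Dppa4 and -0.30 in Hes5. In other genes they were -1.07 in Nt5e, -0.94 in Slpi, -0.84 in Spsb4, -0.83 in Ccnd2, -0.71 in Rapgef5, -0.68 in Car14, -0.38 in Plk1, -0.38 in Obi1, -0.34 in Dusp4, -0.28 in Ass1 and -0.27 in Epdr1.

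With 1 array left out, 16 of these calls were lost in at least 1 case. Lefty1, Ass1, Irx2 and Plk1 lost theirs in 9 of the 11 cases each (highest limma adjusted p = 0.0863, 0.107, 0.186 and 0.159), Epdr1 in 8 (0.202), Otx2 and Car14 in 7 each (0.111 and 0.0921), Dppa4, Lama1 and Hes5 in 6 each (0.0780, 0.0799 and 0.0742), Phlda1 in 5 (0.123) and Nodal in 2 (0.0606). Obi1, Dusp4, Lefty2 and Foxo1 lost theirs in 1 case each (0.0922, 0.0630, 0.0522 and 0.0675). The Lefty1 value was 5.09 without unstimulated GY118F replicate 3, the array that stood apart from its group.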

How the results depend on the processing

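Under the alternatives, the counts of higher and lower autosomal calls between the stimulated lines were 931 and 839 without the dimmer 50 percent of features, 983 and 832 at an adjusted p under 0.01, and 349 and 286 with at least 1.4-fold. Between the unstimulated lines they were 960 and 919 without the dimmer features and 299 and 329 at 1.4-fold. Interaction counts upward and downward were 202 and 107 without the dimmer features, 187 and 79 at 0.01, and 170 and 63 at 1.4-fold. Leaving out 1 array gave 1006 to 1546 higher and 967 to 1373 lower calls between the stimulated lines, the lowest without stimulated GY118F replicate 2 and 3 in turn, 1303 to 1600 and 1252 to 1570 between the unstimulated lines, and 237 to 418 upward and 122 to 296 downward for the interaction. The upward interaction count fell below 366 by over 1.5 times without stimulated GY118F replicate 2 (237), and the downward one without unstimulated GY118F replicate 2 (122), unstimulated control replicate 2 or 3 (130 and 132), stimulated GY118F replicate 2 (134) or stimulated control replicate 2 (131). Without a stimulated GY118F array the remaining one is assumed to vary like the other groups.

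The labels do not say whether same-numbered arrays share more than a number. Their deviations from the group means correlated at -0.472 to 0.543 by the numbers of the source names and at -0.293 to 0.472 by those of the titles, and not every array correlated best with its own number. Deviations cancel within each small group, so these correlations cannot tell whether a block was shared. All pairs of arrays titled replicate 1 correlated positively (0.138 to 0.470). With the replicate block 1506 features were called higher and 1255 lower between the stimulated lines, against 1481 and 1329 without it. Tdgf1, which was never called, turned to -0.011 with the replicate block, and Lefty1, also without a call, to 0.28 with a block on the numbers of the titles. Hes5 turned to 0.0057 with the replicate block, and Dusp6 to 0.0036 with it and 0.0094 with the numbers of the titles. Leaving out 1 array turned Tdgf1 (-0.14 to 0.36), Cebpb (-0.016 to 0.079), Cebpd (-0.094 to 0.060), Myc (-0.0082 to 0.071), Dnmt3b (-0.31 to 0.020), Hes5 (-0.023 to 0.0048), Nes (-0.26 to 0.047), Egr1 (-0.034 to 0.22), Dusp6 (-0.090 to 0.074), Gapdh (-0.096 to 0.072), Ifitm2 (-0.062 to 0.15) and Lin28a (-0.56 to 0.058), none of them called in the fit of all arrays. Calls between the stimulated lines lost without 1 array, besides those given with their genes, were Foxo1 and Cer1 in 4 of 11 cases each, Ier3 in 3, Irgm2, Spsb4, Tyk2 and Sparc in 2 each, Cxcr4 in 5, and Rapgef5, Egr3 and Rplp0 in 1 each (highest limma adjusted p = 0.253). The causes were not tested. For the interaction, the fit of only the groups compared is the same fit and was not run. Dim features near the floor of the arrays limit how well small differences can be seen.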
